A study of Homo sapiens with 43 samples.

Results

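The 42 genes described here encode enzymes, membrane proteins and proton pump subunits of the lysosome. They were listed by name for their known roles, at a time when earlier results of these data were known, and are 42 of the 20052 genes in the count table. All 42 were among the 16816 genes that passed the filter on low counts and were tested. They were followed in HMC3, an immortalised human cell line that is labelled microglial. Hormone flasks received dexamethasone at 1 or 0.01 µM or hydrocortisone at 10 or 0.01 µM for 3 days (day 3), and each dose had ethanol vehicle flasks of its own. A further group stayed in medium alone. Cells were then reseeded in plain growth medium and sampled again after a washout of 3 days (day 6). Not every flask has a day 6 library, and the group in medium alone has none. On day 3 there were 12 libraries from hormone flasks, 12 from vehicle flasks and 3 from medium alone, and on day 6 there were 12 from hormone-exposed and 4 from vehicle-exposed cells, with 3 in each hormone group. The 4 day 6 vehicle groups had 1 library each and were used together. All libraries come from the same cell line, and how independent the replicate flasks were is not known beyond the labels. The p-values therefore cover only the variation among these libraries, which may be technical.

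Lysosomes degrade proteins, glycans, lipids and whole organelles with acid hydrolases. The V-ATPase, a proton pump, acidifies them, and most of their soluble enzymes are carried there by sorting receptors such as the mannose 6-phosphate receptors and sortilin. Many lysosomal genes carry a short palindromic element (CLEAR) near their start sites through which TFEB and its relatives MITF and TFE3 can raise them together. Glucocorticoids act through the glucocorticoid receptor, a transcription factor, and in macrophages they are known to alter phagocytosis and protease genes.

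Total counts ran from 7638840 to 24426643 per library. Ribosomal RNA genes took 9.897 to 94.86% of them (median 29.26%), with more than 75% in 7 libraries of 7 different groups. The hormone target FKBP5, a chaperone of the receptor, was higher with 1 µM dexamethasone by 1.44 ± 0.13 on the log2 scale (SE), and the targets TSC22D3 and PER1 were higher by 3.99 ± 0.27 and 2.4 ± 0.22. Of the markers of microglia and macrophages, 6 of the 14 listed were in the count table. CSF1R, TREM2, CD14, CD68 and LAPTM5 had medians of 0.146, 0.136, 0.342, 0.0583 and 0.083 CPM, so these markers were near 0. CPM are read counts scaled to the TMM-adjusted library size. Of the 10 listed markers of fibroblasts and pericytes, 8 were in the count table. Of these, 6 had medians above 1 CPM, with 919.8 CPM for COL1A1 and 884.2 CPM for VIM. DCN and ACTA2 were also near 0, with medians of 0.219 and 0.491 CPM.

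Without hormone, on day 3, the 42 genes differed widely in level per kilobase of exon. PSAP, the precursor of the saposins that help lipid hydrolases, led with 63.7 ± 4.01 CPM per kilobase (SD, n = 15 vehicle and untreated libraries). The tetraspanin CD63 followed with 54.6 ± 3.22 and the growth factor precursor progranulin (GRN) with 32.8 ± 2.02 CPM per kilobase. CTSA, CTSB, LAMP1 and ATP6V1A lay next, between 10.8 and 12.9 CPM per kilobase, and each was within about 2 SD of its neighbour. At the low end were CTSO with 0.206 ± 0.0774 and the bone cathepsin CTSK with 0.169 ± 0.1 CPM per kilobase, whose ranges overlapped. TFEB had 0.433 ± 0.0954 CPM per kilobase. The defining lysosomal markers LAMP1, CTSD, PSAP and HEXA were present in every library, with lowest levels of 60.6, 20.3, 182.8 and 23.1 CPM.

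**Figure D1:**
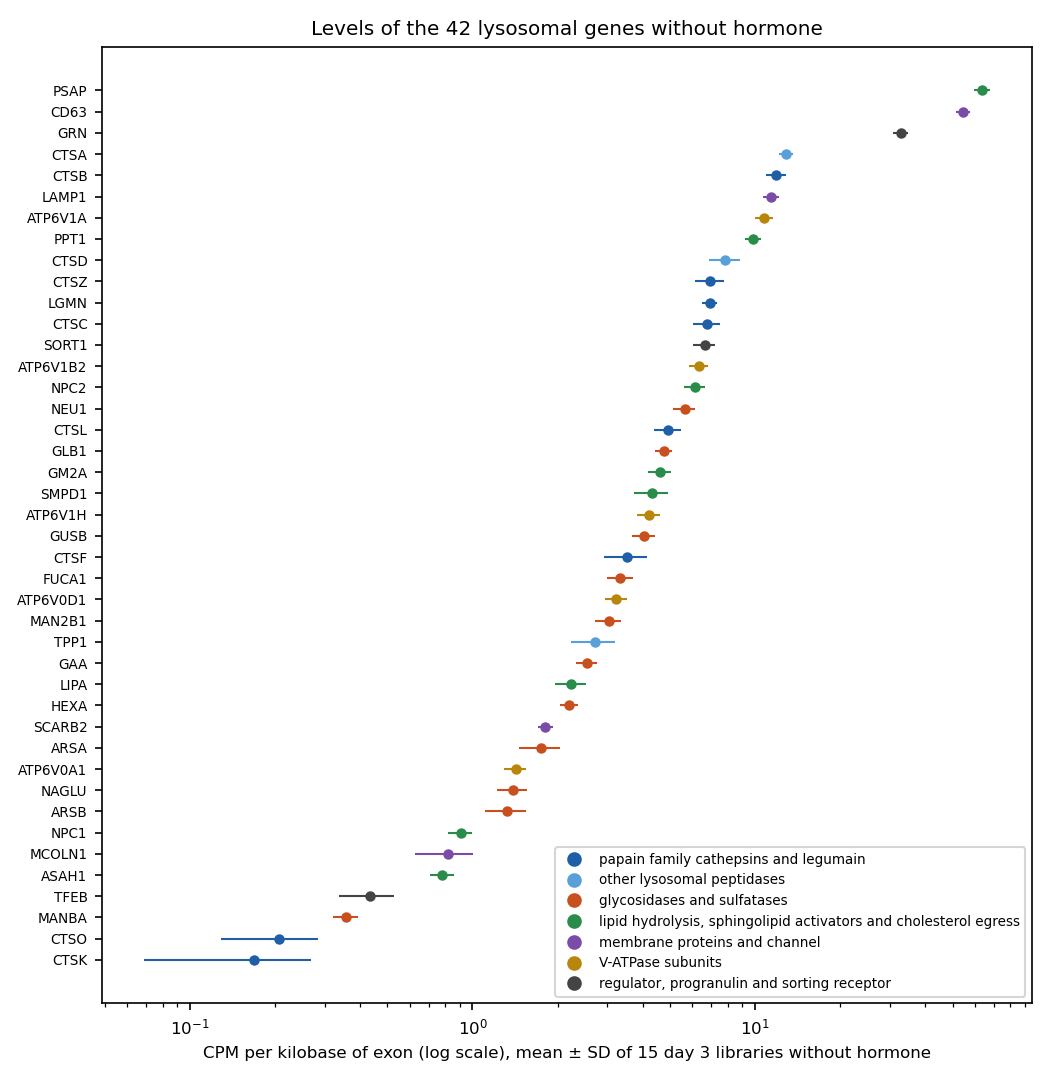
Level of each of the 42 genes in CPM per kilobase of exon (log axis) as mean ± SD over the 15 day 3 libraries that had vehicle or medium alone, coloured by role. PSAP, CD63 and GRN stand highest at 63.7, 54.6 and 32.8, and CTSO and CTSK lowest at 0.206 and 0.169.

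Because lysosomal genes are known to share the CLEAR element, the sequences around their start sites were searched in the RefSeq promoter table (GRCh38.p14, 250 bases before to 50 after the start). Of the 42 genes, 29 had an entry. The core TCACGTG, read on both strands, occurred in 8 of the 29 (27.6%), against 3.82% of all 27305 promoters in the table. The full CLEAR palindrome, which is that core preceded by G and followed by AC, occurred in GAA and MCOLN1, which is 6.9% of the 29, against 0.381% of all promoters. The stretches below show the core in capitals with up to 30 bases on either side, for 4 genes that were higher with 1 µM dexamethasone (LAMP1, GAA, CTSD and NEU1) and 2 whose changes did not pass the test (MCOLN1 and CTSA). They are printed 5′ to 3′ on the gene's own strand.
LAMP1, chr13:113297016-113297132, plus strand: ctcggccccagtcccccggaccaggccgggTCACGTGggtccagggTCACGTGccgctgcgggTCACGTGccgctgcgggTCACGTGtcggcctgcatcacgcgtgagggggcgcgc
GAA, chr17:80101474-80101580, plus strand: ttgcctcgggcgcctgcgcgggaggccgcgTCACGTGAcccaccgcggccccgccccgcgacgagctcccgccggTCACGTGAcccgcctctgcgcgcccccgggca
CTSD, chr11:1763938-1764004, minus strand: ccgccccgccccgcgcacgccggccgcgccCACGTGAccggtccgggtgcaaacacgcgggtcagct
NEU1, chr6:31862912-31862978, minus strand: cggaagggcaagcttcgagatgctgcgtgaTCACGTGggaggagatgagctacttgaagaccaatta
MCOLN1, chr19:7522552-7522623, plus strand: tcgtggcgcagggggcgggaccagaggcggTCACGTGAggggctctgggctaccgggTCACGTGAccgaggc
CTSA, chr20:45891262-45891334, plus strand: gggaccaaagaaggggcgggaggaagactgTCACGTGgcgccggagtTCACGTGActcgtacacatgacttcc

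Runs of 8 capitals are cores on both strands that overlap by 6 bases, and LAMP1 holds further cores closer to its start that are not printed. The core was found in 5 of 14 promoters of genes that were higher with 1 µM dexamethasone, in 3 of 13 of genes that were not called and in 0 of 2 of genes that were lower (CTSC and CD63). The palindromic consensus of the glucocorticoid receptor, AGAACA then 3 free bases then TGTTCT, occurred in 0 of the 29 windows and in 0.00366% of all promoters, and AGAACA alone in 0 of the 29 and in 14.9% of all promoters. A match or its absence describes only these letters in this window.

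On day 3, 1 µM dexamethasone shifted lysosomal genes mostly upward, with CTSC as the clear exception. Against their own vehicle, 18 of the 42 genes were higher and 4 lower (quasi-likelihood test in edgeR, p adjusted over all genes tested by the Benjamini-Hochberg method and below 0.05, 3 libraries against 3). That is 52.4%, where 22.6% of all tested genes were called in that comparison, 10.3% higher and 12.3% lower. The 42 genes are more abundant than the tested genes at large (median level 16.9 against 7.67 CPM, with 34 of 42 above the median of all tested genes). Their median log2 change was 0.25, against 0.02 over all tested genes, and their changes lay between -1.80 and 1.06. Dexamethasone at 0.01 µM gave 11 higher and 2 lower (31%), with 14% of all tested genes called, 6.15% higher and 7.84% lower. Hydrocortisone at 10 µM gave 14 higher and 4 lower (42.9%), with 13.1% of all tested genes called, 5.58% higher and 7.5% lower. In total 24 genes passed in at least 1 of these 3 comparisons, 20 as higher and 4 as lower, and none passed in opposite directions. Of all tested genes, 29% passed in at least 1, 13.6% as higher and 15.5% as lower.

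The same 8 genes, NAGLU, ARSA, ASAH1, SMPD1, NPC1, LAMP1, SCARB2 and SORT1, were higher in all 3 comparisons, and CTSC and ATP6V1B2 were lower in all 3. Of all tested genes, 2.69% were higher and 3.99% lower in all 3. These comparisons have separate vehicle libraries. Without the libraries in which ribosomal RNA exceeded 75%, the counts of genes called were 20 for 1 µM dexamethasone, 7 for 0.01 µM dexamethasone and 17 for 10 µM hydrocortisone, where 22, 13 and 18 were called with them. When only replicate 3 of 0.01 µM dexamethasone, with a ribosomal share of 94.86%, was left out, 6 genes were called at that dose. Over all tested genes, leaving out 1 library of that comparison gave 1643 to 2351 calls, where 2353 were called with every library. The summed level of the 42 genes was 1586 ± 20 CPM with 1 µM dexamethasone and 1470 ± 33 CPM in its vehicle (SD, n = 3 each). With 10 µM hydrocortisone it was 1570 ± 26 CPM, and 1486 ± 16 CPM in its vehicle. In bulk RNA a change in the level per cell and a change in the share of cells that express a gene cannot be told apart.

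**Figure D2:**
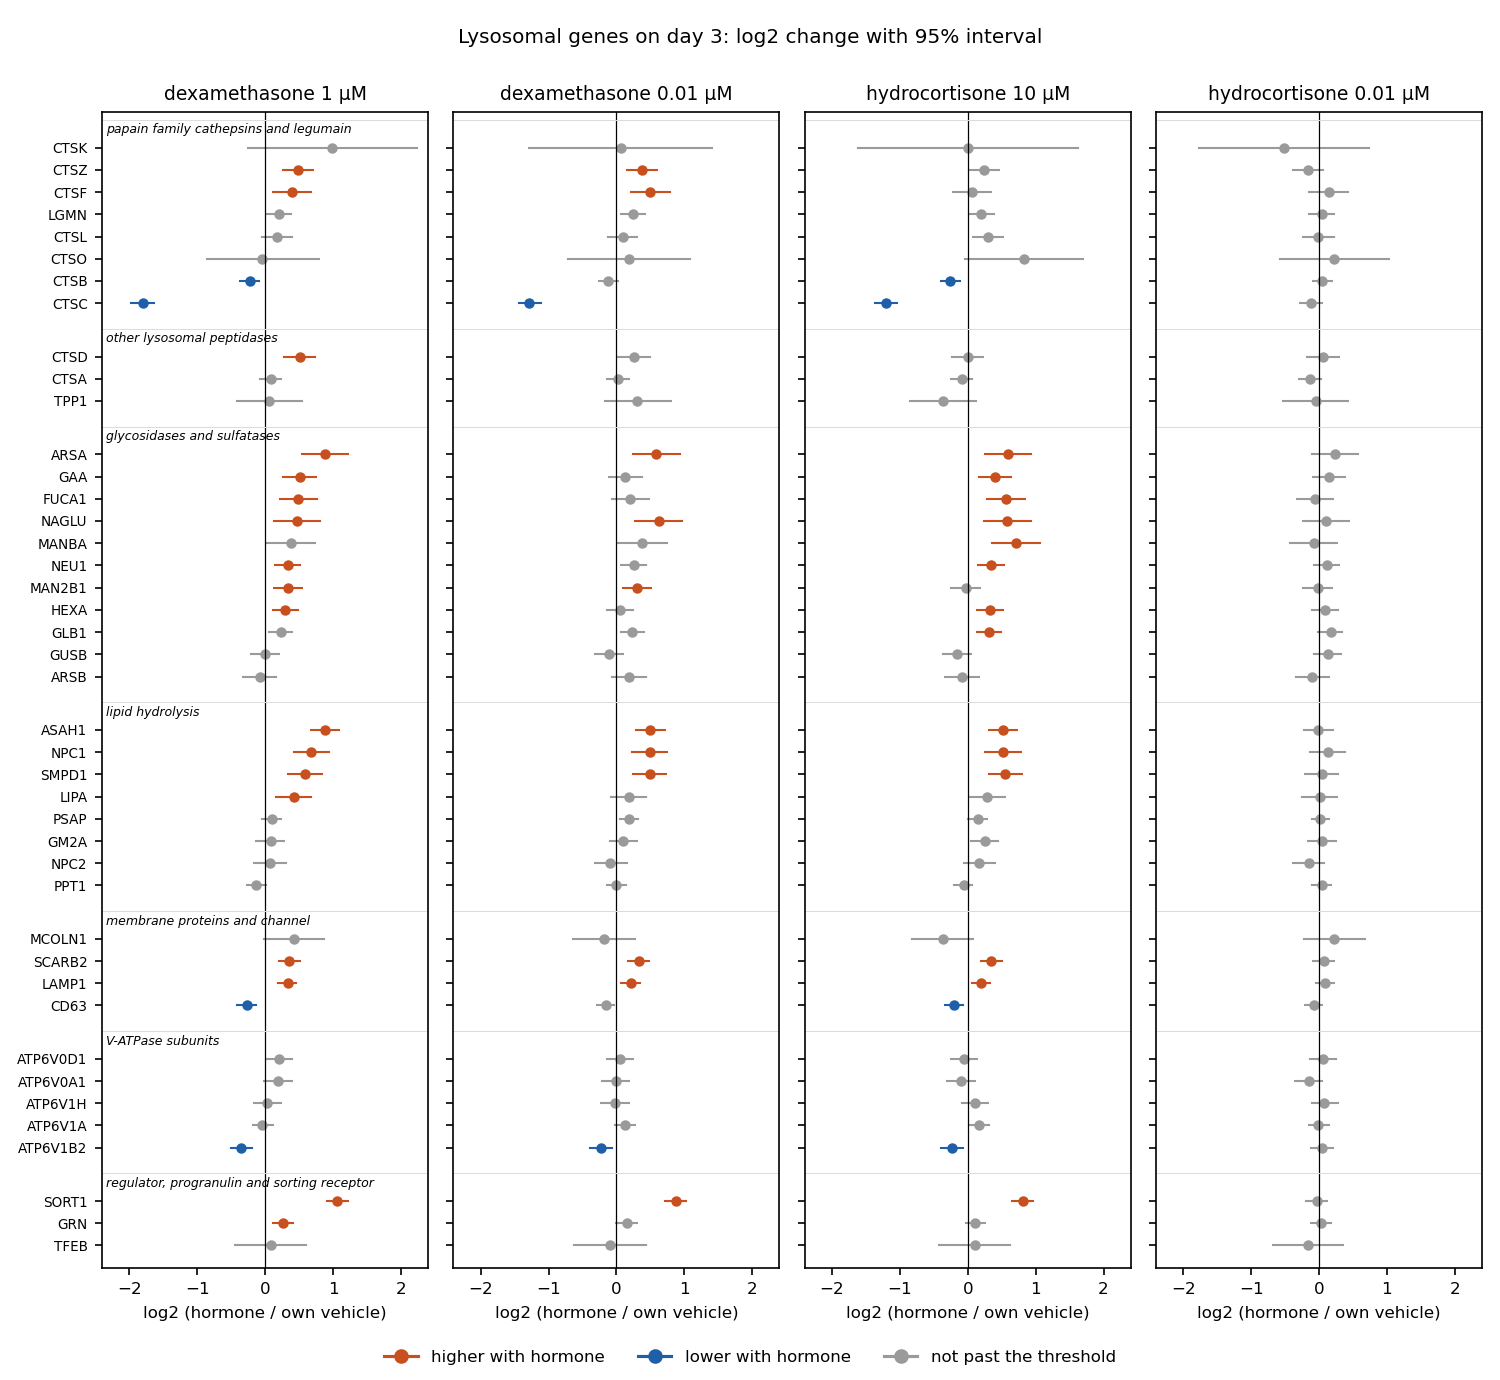
Log2 change of each of the 42 genes on day 3, hormone over its own vehicle, with 95% intervals, in rows by role and in panels by hormone and dose (3 libraries against 3 in each). Orange marks genes past the threshold as higher (18, 11, 14 and 0 from the left panel to the right), blue those past it as lower (4, 2, 4 and 0) and grey the rest.

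Among the cysteine cathepsins, which cut proteins in the lysosome, CTSC moved furthest of all 42 genes. CTSC (ENSG00000109861, chromosome 11, 88293592 to 88337787 of GRCh38, minus strand) encodes cathepsin C, which activates the granule serine proteases of immune cells. It had 24.1, 26.6 and 20.3 CPM with 1 µM dexamethasone, against 79.1, 90 and 78.4 CPM in its vehicle. Every hormone library lay below every vehicle library, by a wide margin. Of all tested genes, 38.3% had no overlap between hormone and vehicle libraries in this comparison. The share was 23.5% with 0.01 µM dexamethasone and 29% with 10 µM hydrocortisone. The log2 change was -1.80 ± 0.08 (SE), a fall of 71.3% (adjusted p = 1.48e-21).

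With 0.01 µM dexamethasone CTSC had 32.8, 33.1 and 33.4 CPM, against 88, 76.7 and 75.8 CPM in its vehicle, and the log2 change was -1.28 ± 0.08 (adjusted p = 3.86e-16). With 10 µM hydrocortisone it had 27.9, 27.1 and 28.6 CPM, against 66.6, 67.2 and 59.4 CPM in its vehicle, and the log2 change was -1.21 ± 0.08 (adjusted p = 1.46e-15). Those vehicle libraries were lower in CTSC than the other vehicle libraries of day 3, which ran from 73.8 to 90 CPM. Against all 4 vehicle groups of day 3 together, the log2 change of CTSC with 10 µM hydrocortisone was -1.45. Its call held under every alternative and without any 1 library in each of these 3 comparisons.

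The other cysteine proteases of the group changed less. CTSZ, a carboxypeptidase, had 20.6, 18.4 and 18.4 CPM with 1 µM dexamethasone, against 13.8, 13.3 and 13.8 CPM in its vehicle, without overlap, and was higher by 0.49 ± 0.11 (adjusted p = 6.39e-04). It was also higher with 0.01 µM dexamethasone, by 0.38 ± 0.11. CTSF was higher by 0.40 ± 0.14 with 1 µM and by 0.50 ± 0.14 with 0.01 µM dexamethasone. CTSB, an abundant endopeptidase, was lower by a small step, with a log2 change of -0.23 ± 0.07 with 1 µM dexamethasone and -0.26 ± 0.07 with 10 µM hydrocortisone. Against all 4 vehicle groups together the call of CTSB with hydrocortisone was lost (adjusted p = 0.209). The collagen-cleaving CTSK, CTSL, CTSO and the asparaginyl endopeptidase LGMN passed the test in none of the 3 comparisons. Their log2 changes lay between -0.04 and 0.99, and the intervals of the rare CTSK and CTSO were wide (for CTSK with 10 µM hydrocortisone -1.61 to 1.63).

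Of the other peptidases, the aspartic protease CTSD had 33, 35.9 and 34.4 CPM with 1 µM dexamethasone, against 28.2, 22.2 and 22.4 CPM in its vehicle. The groups did not overlap, and CTSD was higher by 0.51 ± 0.11 (adjusted p = 6.75e-04). Its changes with 0.01 µM dexamethasone and 10 µM hydrocortisone were 0.26 and 0.00 and did not pass. CTSA, which shields other lysosomal enzymes from degradation, and TPP1 passed in none of the 3 comparisons, with log2 changes between -0.36 and 0.31. CTSA shares exon sequence with PLTP on the opposite strand, and whether the counting used strand is not stated.

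Of 11 sugar-cleaving enzymes and sulfatases, 7 were higher with 1 µM dexamethasone, 3 with 0.01 µM dexamethasone and 8 with 10 µM hydrocortisone, where 10.3, 6.15 and 5.58% of all tested genes were higher, and none of the 11 was lower. ARSA, the sulfatase that degrades the myelin lipid sulfatide (ENSG00000100299, chromosome 22, 50622754 to 50628173, minus strand), had 7.56, 10.3 and 13 CPM with 1 µM dexamethasone, against 6.76, 4.97 and 5.13 CPM in its vehicle. All hormone libraries were higher, though they differed among themselves more than the vehicle libraries did. ARSA was higher by 0.88 ± 0.17 (adjusted p = 9.7e-05), and by 0.58 ± 0.17 and 0.59 ± 0.17 with 0.01 µM dexamethasone and 10 µM hydrocortisone.

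NAGLU, an enzyme of heparan sulfate breakdown, had 5.36, 6.35 and 7.36 CPM with 0.01 µM dexamethasone, against 3.21, 4.43 and 4.58 CPM in its vehicle, without overlap. The hormone library at 7.36 CPM had a ribosomal share of 94.86% and the vehicle library at 3.21 CPM 82.49%. Without either library the call at this dose was lost. NAGLU was higher in all 3 comparisons, by 0.47 ± 0.17, 0.63 ± 0.17 and 0.58 ± 0.17. GAA, which degrades glycogen, was higher by 0.51 ± 0.12 with 1 µM dexamethasone and by 0.40 ± 0.12 with 10 µM hydrocortisone. The fucosidase FUCA1 was higher by 0.49 ± 0.13 and 0.56 ± 0.14 in the same 2 comparisons, the sialidase NEU1 by 0.34 ± 0.09 in each, and HEXA, the alpha subunit of beta-hexosaminidase, by 0.29 ± 0.09 and 0.33 ± 0.09. The alpha-mannosidase MAN2B1 passed with dexamethasone, by 0.34 ± 0.10 at 1 µM and 0.30 ± 0.10 at 0.01 µM, and its log2 change with 10 µM hydrocortisone was -0.03. The beta-mannosidase MANBA and the beta-galactosidase GLB1 passed with 10 µM hydrocortisone, by 0.71 ± 0.17 and 0.32 ± 0.09, and had changes of 0.38 and 0.23 with 1 µM dexamethasone that did not. Whether these effects differ between the hormones was not tested, since their doses differ. GUSB and ARSB passed in none, with log2 changes between -0.16 and 0.19. GLB1 shares exon sequence with TMPPE on the same strand, which had 0.125 times its counts. The log2 changes of TMPPE in the 3 comparisons were 0.19, 0.06 and -0.37 and did not pass. The part of shared reads in the change of GLB1 was not tested.

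Of 8 genes of lipid breakdown and cholesterol export, ASAH1, SMPD1 and NPC1 were higher in all 3 comparisons, LIPA in 1, and 4 in none. ASAH1 encodes acid ceramidase, which splits ceramide (ENSG00000104763, chromosome 8, 18055992 to 18084998, minus strand). It had 21.5, 20.5 and 19.7 CPM with 1 µM dexamethasone, against 10.7, 12.4 and 10.4 CPM in its vehicle. The lowest hormone library was well above the highest vehicle library, and ASAH1 was higher by 0.88 ± 0.10 (adjusted p = 7.52e-09). With 0.01 µM dexamethasone it had 15.7, 17 and 18.2 CPM, against 13, 11.3 and 11.7 CPM in its vehicle (0.50 ± 0.10, adjusted p = 5.68e-04). With 10 µM hydrocortisone it had 18.6, 17.2 and 18.5 CPM, against 10.6, 12.5 and 14.8 CPM in its vehicle (0.52 ± 0.10, adjusted p = 3.41e-04). In neither did the groups overlap.

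SMPD1, the acid sphingomyelinase that makes ceramide from sphingomyelin (ENSG00000166311, chromosome 11, 6390431 to 6394998, plus strand), had 18.7, 17.9 and 17.3 CPM with 1 µM dexamethasone, against 12, 12.4 and 11.3 CPM in its vehicle. It was higher by 0.59 ± 0.12 (adjusted p = 2.47e-04), and by 0.49 ± 0.12 with 0.01 µM dexamethasone and 0.55 ± 0.12 with 10 µM hydrocortisone. NPC1, the membrane protein that moves cholesterol out of the lysosome (ENSG00000141458, chromosome 18, 23506184 to 23586898, minus strand), had 14.1, 13 and 14.5 CPM with 1 µM dexamethasone, against 8.55, 7.8 and 9.59 CPM in its vehicle. The groups did not overlap, and NPC1 was higher by 0.68 ± 0.13 (adjusted p = 7.15e-05), and by 0.49 ± 0.13 and 0.52 ± 0.13 in the other comparisons. Its exons overlap those of RMC1 on the opposite strand, whose own log2 changes of 0.11, 0.32 and 0.02 did not pass. With 0.01 µM dexamethasone the libraries of NPC1 were uneven, at 13.3, 15.2 and 9.81 CPM, against 9.45, 9.64 and 8.29 CPM in its vehicle.

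LIPA, which frees cholesterol from its esters, had 17.1, 15 and 14.6 CPM with 1 µM dexamethasone, against 11.6, 12.1 and 11.2 CPM in its vehicle, and was higher by 0.42 ± 0.13 (adjusted p = 0.0136). LIPA shares exon sequence with the opposite-strand gene IFIT2, which was itself higher by 2.32 on the log2 scale and had 0.257 times the counts of LIPA. The part of those shared reads in the change of LIPA was not tested. The lipid carriers and activators PSAP, GM2A and NPC2 and the thioesterase PPT1 passed in none of the 3 comparisons, with log2 changes between -0.13 and 0.25. NPC2, the soluble partner of NPC1 in cholesterol export, had changes of 0.07, -0.09 and 0.17. PPT1 and NPC2 also overlap opposite-strand genes, CAP1 and ISCA2.

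**Figure D3:**
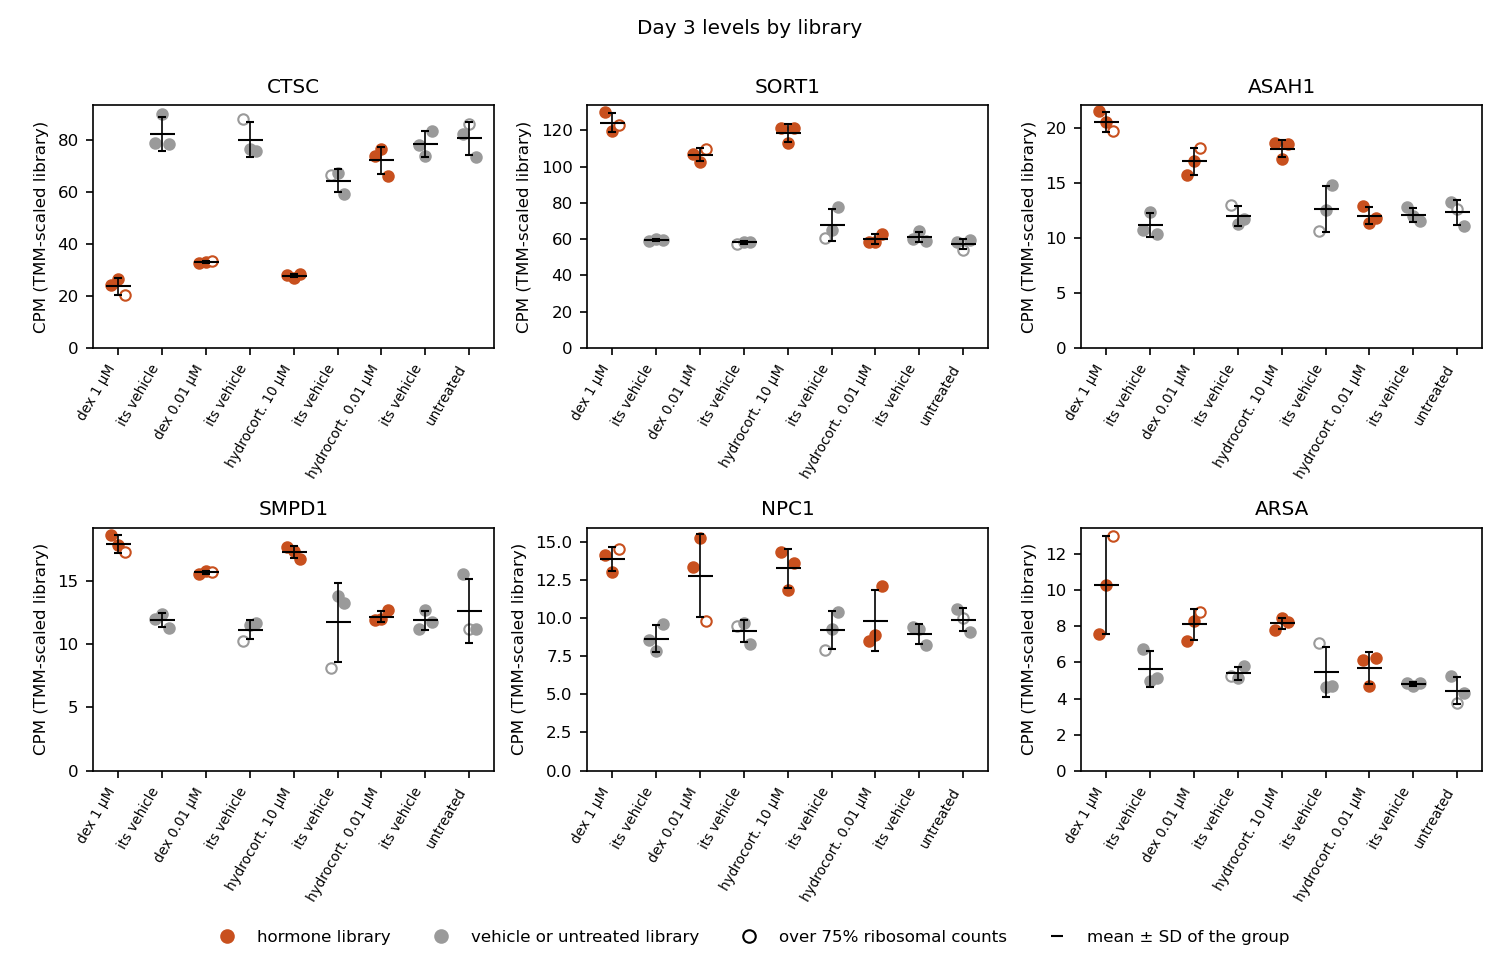
Level of CTSC, SORT1, ASAH1, SMPD1, NPC1 and ARSA in every day 3 library, in CPM of the TMM-scaled library, each hormone dose to the left of its own vehicle and the untreated group at the right, with mean ± SD (n = 3 per group). CTSC lies between 20.3 and 33.4 CPM in the libraries of both dexamethasone doses and of 10 µM hydrocortisone and between 59.4 and 90 CPM in all others, and SORT1 between 102.7 and 130.0 CPM in those hormone libraries and between 53.9 and 77.7 CPM in all others.

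Among membrane proteins, LAMP1, a main glycoprotein of the lysosomal membrane, had 81.5, 80.1 and 86 CPM with 1 µM dexamethasone, against 65.8, 68.1 and 63.7 CPM in its vehicle. It was higher by 0.33 ± 0.07 (adjusted p = 2.69e-04), and by 0.21 ± 0.07 and 0.19 ± 0.07 in the other 2 comparisons. SCARB2, the receptor that carries glucocerebrosidase to the lysosome, had 48.3, 42.9 and 43.7 CPM with 1 µM dexamethasone, against 35.4, 36.4 and 34 CPM in its vehicle. The groups of both genes did not overlap, and the changes of SCARB2 were 0.35 ± 0.08, 0.33 ± 0.08 and 0.35 ± 0.08 in the 3 comparisons. CD63, a tetraspanin of late endosomes and exosomes, had 129.1, 120.4 and 129.4 CPM with 1 µM dexamethasone, against 144.2, 159.3 and 154.8 CPM in its vehicle. It was lower with 1 µM dexamethasone (-0.27 ± 0.07) and 10 µM hydrocortisone (-0.20 ± 0.07). The calcium channel MCOLN1 did not pass, with changes of 0.42, -0.18 and -0.37, and shares exons with PNPLA6, which has 6.64 times its counts.

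Of 5 V-ATPase subunits, 1 was lower in all 3 comparisons and 4 passed in none. ATP6V1B2, a subunit of the pump's catalytic head, had 38, 39.7 and 39.6 CPM with 1 µM dexamethasone, against 46.9, 50.4 and 52.4 CPM in its vehicle, without overlap. It was lower by a log2 change of -0.35 ± 0.08 (adjusted p = 7.91e-04), and of -0.23 ± 0.08 with both 0.01 µM dexamethasone and 10 µM hydrocortisone, where the hydrocortisone and vehicle libraries overlapped. The other 4 subunits, ATP6V0D1, ATP6V1A, ATP6V1H and ATP6V0A1, passed in none of the 3 comparisons, with log2 changes between -0.10 and 0.20 and intervals that lay between -0.30 and 0.39.

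SORT1 had the largest rise of the 42 genes. It encodes sortilin, a receptor that brings progranulin and other cargo into the lysosomal route (ENSG00000134243, chromosome 1, 109309568 to 109397951, minus strand). With 1 µM dexamethasone it had 130.0, 119.5 and 123.0 CPM, against 59, 59.8 and 59.4 CPM in its vehicle. The hormone libraries held about 2-fold more, and SORT1 was higher by 1.06 ± 0.08 (adjusted p = 9.87e-15). With 0.01 µM dexamethasone it had 107.1, 102.7 and 109.9 CPM, against 57.2, 58.6 and 58.5 CPM in its vehicle (0.87 ± 0.08, adjusted p = 8.53e-12). With 10 µM hydrocortisone it had 121.4, 112.8 and 121.1 CPM, against 60.6, 64.9 and 77.7 CPM in its vehicle (0.81 ± 0.08, adjusted p = 6.18e-11). Its call held under every alternative and without any 1 library. GRN, the ligand of sortilin, had 139.9, 146.0 and 154.2 CPM with 1 µM dexamethasone, against 112.0, 127.4 and 126.6 CPM in its vehicle. The groups did not overlap, and GRN was higher by 0.27 ± 0.07 (adjusted p = 0.00571), while its changes of 0.15 and 0.11 in the other comparisons did not pass. TFEB itself did not pass, with changes of 0.08, -0.10 and 0.10 and an interval of -0.44 to 0.60 at 1 µM.

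Many of the smaller changes lay close to the threshold. Under every alternative other than left-out libraries, 17 of 22 calls held with 1 µM dexamethasone. With 0.01 µM dexamethasone 5 of 13 held, and with 10 µM hydrocortisone 12 of 18. With 1 µM dexamethasone, 13 of the 22 calls held whichever of the 6 libraries was left out. Those lost were FUCA1 (adjusted p = 0.0651), CTSB (0.0867), CTSF (0.0628), HEXA (0.094) and NAGLU (0.0911) without hormone replicate 3, CTSF (0.108), LIPA (0.0792) and NAGLU (0.0519) without hormone replicate 2, and NAGLU (0.0992) and MAN2B1 (0.151) without hormone replicate 4. Without vehicle replicate 1, NEU1 (0.0801), CTSF (0.128), HEXA (0.0755), NAGLU (0.108) and GRN (0.0654) were lost. Without vehicle replicate 2, CTSB (0.0645), CTSF (0.0529) and NAGLU (0.0662) were lost, and without vehicle replicate 4, CTSF (0.0628), LIPA (0.053), NAGLU (0.0891) and MAN2B1 (0.059).

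With 0.01 µM dexamethasone, 5 of the 13 calls held without any 1 library. ATP6V1B2 was lost without each hormone replicate and without vehicle replicate 3 (adjusted p = 0.0502 to 0.318), MAN2B1 without hormone replicates 2 and 3 and vehicle replicates 1 and 2 (0.0603 to 0.183), and LAMP1 without the same 4 libraries (0.0608 to 0.128). ARSA was lost without hormone replicate 3 and vehicle replicates 1 and 2 (0.0574 to 0.0604), NAGLU without hormone replicate 3 and vehicle replicate 1 (0.0607 and 0.0946), and CTSZ without hormone replicate 3 and vehicle replicate 3 (0.196 and 0.093). CTSF was lost without hormone replicate 3 (0.0858) and NPC1 without hormone replicate 2 (0.0851).

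With 10 µM hydrocortisone, 9 of the 18 calls held without any 1 library. LAMP1 was lost without any of 5 libraries, all but vehicle replicate 1 (adjusted p = 0.0684 to 0.276). ATP6V1B2 was lost without hormone replicates 2 and 3 and vehicle replicates 1 and 3 (0.058 to 0.362), CD63 without hormone replicates 3 and 4 and vehicle replicates 1 and 2 (0.0505 to 0.199), and GAA without hormone replicates 2 and 3 and vehicle replicates 1 and 2 (0.0532 to 0.0763). ARSA was lost without hormone replicate 3 and vehicle replicates 2 and 3 (0.0509 to 0.0951), GLB1 without hormone replicate 2 and vehicle replicate 2 (0.0525 and 0.0943), and CTSB without hormone replicate 4 and vehicle replicate 1 (0.0891 and 0.0758). HEXA was lost without hormone replicate 3 and vehicle replicate 1 (0.0632 and 0.0799), and NAGLU without hormone replicate 3 and vehicle replicate 3 (0.0927 and 0.0537).

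Hydrocortisone at 0.01 µM called 0 of the 42 genes, as of all tested genes (0%), and ethanol vehicle against untreated medium likewise called 0 (0% of all tested genes). In edgeR's test, 0 and 3 of the 42 genes had an unadjusted p below 0.05 in these comparisons, as did 2.37 and 5.37% of all tested genes, and DESeq2 called 0 in both. With 0.01 µM hydrocortisone CTSC had 74, 76.5 and 66.4 CPM, against 78.3, 73.8 and 83.7 CPM in its vehicle. SORT1 had 58.6, 58.2 and 62.9 CPM with 0.01 µM hydrocortisone, against 60.1, 64.5 and 59 CPM in its vehicle. Both pairs of groups overlapped. The log2 changes of the 42 genes lay between -0.51 and 0.24 with 0.01 µM hydrocortisone and between -0.34 and 0.48 for vehicle against medium.

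Dexamethasone is a synthetic relative of hydrocortisone that carries a fluorine atom, a further methyl group and a further ring double bond. The hormones share only the dose of 0.01 µM, which gives 1 pair to compare. There, the vehicle-corrected effect of dexamethasone differed from that of hydrocortisone in 4 of the 42 genes, 3 as higher and 1 as lower, with 4.98% of all tested genes called, 2.07% higher and 2.91% lower. DESeq2 called 2 of the 42 genes. The difference, dexamethasone minus hydrocortisone, was -1.16 for CTSC (95% interval -1.39 to -0.93, adjusted p = 7.33e-10) and 0.90 for SORT1 (0.68 to 1.13, adjusted p = 1.16e-07). It was 0.53 for CTSZ (0.22 to 0.84, adjusted p = 0.0319) and 0.51 for ASAH1 (0.21 to 0.80, adjusted p = 0.0329). The 95% interval of this difference had a median half-width of 0.29 over all 42 genes, so most smaller differences between the hormones were not detectable. The interval is not adjusted for the number of genes, so larger differences could also miss the threshold.

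Between the doses of hydrocortisone, 10 minus 0.01 µM, 2 genes had a higher and 1 a lower effect, with 4.09% of all tested genes called, 1.73% higher and 2.36% lower. DESeq2 called 2 of the 42 genes, and 6 were called without vehicle replicate 3 of 10 µM. The differences were -1.09 for CTSC (adjusted p = 2.83e-09), 0.84 for SORT1 (adjusted p = 4.46e-07) and 0.53 for ASAH1 (adjusted p = 0.0273). Between 1 and 0.01 µM dexamethasone 0 of the 42 genes differed in edgeR's test, with 0.0476% of all tested genes called (0.0178% higher and 0.0297% lower), 3 of the 42 genes at an unadjusted p below 0.05 and 0 in DESeq2. The dose difference of CTSC was -0.52 (95% interval -0.75 to -0.29, adjusted p = 0.062) and that of ASAH1 0.38 (0.09 to 0.68, adjusted p = 0.627). For CTSC the dose difference passed the test without hormone replicate 3 of 1 µM or without vehicle replicate 1 of 0.01 µM, when 1 of the 42 genes was called. The call of ASAH1 between the hydrocortisone doses was lost without any of 7 of the 12 libraries, hormone replicates 2 and 4 and vehicle replicates 1 and 2 of 10 µM and hormone replicates 3 and 4 and vehicle replicate 1 of 0.01 µM (adjusted p = 0.0527 to 0.133). Between the hormones, ASAH1 was lost without dexamethasone replicates 2 and 3, dexamethasone vehicle replicates 2 and 3, hydrocortisone replicates 3 and 4 or hydrocortisone vehicle replicates 1 and 2 (0.0529 to 0.0985). CTSZ was lost without dexamethasone replicate 3, dexamethasone vehicle replicates 1 and 3, hydrocortisone replicates 2 and 3 or any of the 3 hydrocortisone vehicle libraries (0.0504 to 0.151).

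After 3 days of washout, 1 µM dexamethasone was the only exposure with lysosomal genes past the threshold in edgeR's test. Of the 42 genes 7 were higher and 1 lower, 19% in all, with 10.2% of all tested genes called, 5.13% higher and 5.03% lower. CTSC had 43.9, 43.8 and 47.7 CPM, against 92.8, 98.6, 87.7 and 82.9 CPM in the 4 vehicle libraries of day 6. It was still lower without overlap, by a log2 change of -1.0 ± 0.08 (adjusted p = 2.34e-13). SORT1 had 80.9, 83.5 and 75.4 CPM, against 64, 59.9, 62.1 and 61.8 CPM in the vehicle libraries, also without overlap, and was higher by 0.37 ± 0.07 (adjusted p = 2.87e-04). Of all tested genes, 20.2% had no overlap in this comparison.

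The remaining day 6 calls were smaller. ASAH1 had 14.2, 14.8 and 15.6 CPM, against 13.5, 12.8, 9.55 and 10.9 CPM in the vehicle libraries, and was higher by 0.36 ± 0.10 (adjusted p = 0.0104). CTSZ was higher by 0.39 ± 0.10, LIPA by 0.44 ± 0.12, SMPD1 by 0.36 ± 0.11 and NEU1 by 0.26 ± 0.09, and the groups overlapped for LIPA, SMPD1 and NEU1. These 7 were also called in the same direction on day 3. The V-ATPase subunit ATP6V0D1 was higher by 0.32 ± 0.09 on day 6, and its day 3 change of 0.20 did not pass. The difference between the days did not pass for this gene. Without vehicle replicate 4 of the high dexamethasone dose, a library of 77.12% ribosomal RNA, NEU1 (adjusted p = 0.258), ASAH1 (0.111), SMPD1 (0.0816), LIPA (0.0853) and ATP6V0D1 (0.207) were lost. Without hormone replicate 4, ASAH1 (0.0648), SMPD1 (0.115) and ATP6V0D1 (0.0648) were lost. In either case 5 genes were called, and without that vehicle library these included genes not called with every library. Without hormone replicate 2, NEU1 (0.373) and SMPD1 (0.14) were lost, and without hormone replicate 3, LIPA (0.0772) and CTSZ (0.0623). Vehicle replicate 3 of the low dexamethasone dose ended the calls of NEU1 (0.0787) and SMPD1 (0.0633), and vehicle replicate 2 of the low hydrocortisone dose that of SMPD1 (0.118).

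The other exposures left 0 of the 42 genes past the threshold on day 6 in edgeR's test. Of all tested genes, 0.0833% were called after 0.01 µM dexamethasone (0.0476% higher and 0.0357% lower), 0.892% after 10 µM hydrocortisone (0.422% higher and 0.47% lower) and 0.0892% after 0.01 µM hydrocortisone, all of them higher. At an unadjusted p below 0.05 there were 3, 8 and 2 of the 42 genes, where 7.09, 11.2 and 9.72% of all tested genes had one, and DESeq2 called 0, 1 and 0. CTSC had 77.7, 71 and 74.2 CPM after 10 µM hydrocortisone, below the 4 vehicle libraries (82.9 to 98.6 CPM), with a log2 change of -0.28 (adjusted p = 0.0555). Of all tested genes, 11% had no overlap in that comparison.

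The change over the washout itself, the day 6 effect minus the day 3 effect against all vehicle libraries of each day, passed the test for a few genes. After 1 µM dexamethasone these were CTSC (0.68), GLB1 (-0.40) and SORT1 (-0.65), with 1.68% of all tested genes called (1.11% higher and 0.571% lower). After 0.01 µM dexamethasone they were CTSC (1.05), ATP6V1B2 (0.37), GLB1 (-0.37), ASAH1 (-0.53), SCARB2 (-0.33) and SORT1 (-0.76), with 6.55% called (4.01% higher and 2.54% lower). After 10 µM hydrocortisone they were CTSC (1.17), GLB1 (-0.42), ASAH1 (-0.48), SCARB2 (-0.42) and SORT1 (-0.78), with 6.97% called (4.31% higher and 2.66% lower). Each of these values has the sign opposite to the gene's day 3 effect. All 3 comparisons share the vehicle libraries. They treat day 3 and day 6 libraries as independent, though libraries of both days may come from the same flasks. The pairing is incomplete, with 12 vehicle libraries on day 3 and 4 on day 6.

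The calls of CTSC and SORT1 over the washout held without any 1 library. After 1 µM dexamethasone GLB1 was lost without hormone replicate 4 of day 3 (adjusted p = 0.234), any of the 3 hormone libraries of day 6 (0.0637 to 0.141), or vehicle replicate 3 of the low dexamethasone dose on day 6 (0.0878). Vehicle replicate 4 of the high dexamethasone dose on day 3 (0.0501), vehicle replicate 1 of the low hydrocortisone dose on day 3 (0.0507) and vehicle replicate 2 of that dose on day 6 (0.051) ended it too. After 0.01 µM dexamethasone GLB1 was lost without hormone replicate 2 of day 3 (0.0817), hormone replicates 1 and 3 of day 6 (0.0569 and 0.066) or vehicle replicate 3 of that dose on day 6 (0.0592). SCARB2 was lost without hormone replicate 1 of day 3 (0.0747), hormone replicate 3 of day 6 (0.101) or vehicle replicate 1 of the high hydrocortisone dose on day 6 (0.0502). ATP6V1B2 was lost without hormone replicate 2 (0.0626) or vehicle replicate 4 of the high dexamethasone dose (0.0757), both of day 6. After 10 µM hydrocortisone ASAH1 was lost without hormone replicate 2 (0.0671) or vehicle replicate 1 of that dose (0.0537), both of day 6.

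In vehicle alone, day 6 against day 3, CTSC was higher by 0.25 ± 0.06 (adjusted p = 0.0209), the only such gene of the 42, with 0.505% of all tested genes called (0.22% higher and 0.285% lower). That call was lost without vehicle replicate 1 of the high hydrocortisone dose (0.0736), replicate 2 of the low hydrocortisone dose (0.162) or replicate 4 of the high dexamethasone dose (0.0724), all of day 6.

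**Figure D4:**
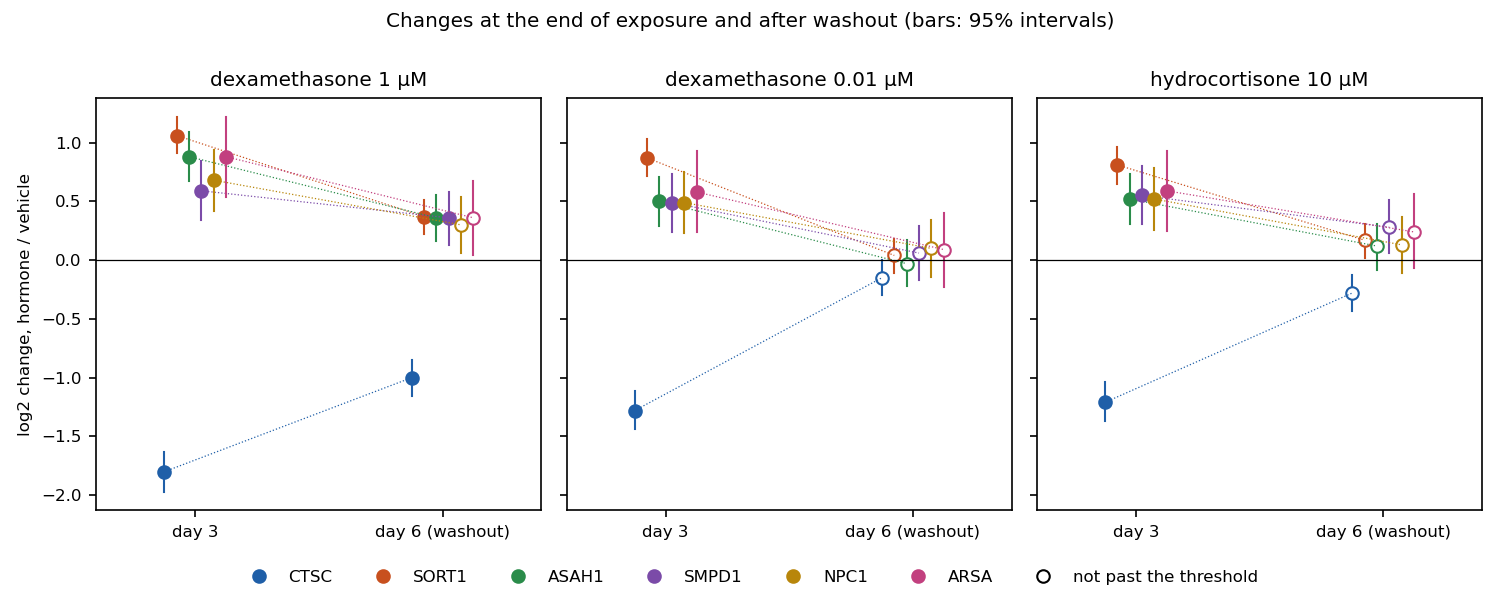
Log2 change (hormone over vehicle, with 95% intervals) of 6 genes at the end of exposure on day 3, against the dose's own 3 vehicle libraries, and after washout on day 6, against the 4 vehicle libraries of that day. After 1 µM dexamethasone CTSC is at -1.80 on day 3 and -1.0 on day 6 and SORT1 at 1.06 and 0.37, and open circles mark genes that did not pass the threshold.

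Lysosomal genes outside the 42 were counted by function in the comparison of 1 µM dexamethasone with its vehicle on day 3. There 22.6% of all tested genes were called, 10.3% higher and 12.3% lower. Of 29 further lysosomal enzymes, mostly hydrolases, 11 were higher, with a median log2 change of 0.22. The count of lower genes in this list is not reported here. HGSNAT, which acetylates heparan sulfate, was higher by 1.17 ± 0.14 and the ribonuclease RNASET2 by 1.06 ± 0.18. Of 24 further membrane proteins 6 were higher and 1 lower, among them ATP13A2, a polyamine transporter (0.63 ± 0.12), SIDT2 (0.50 ± 0.12) and LAPTM4B (-0.46 ± 0.07). Of 16 further V-ATPase subunits and accessory proteins 3 were higher and 1 lower, with the accessory protein ATP6AP1 at 0.36 ± 0.09, ATP6V0A2 at 0.51 ± 0.14 and ATP6V1D at -0.27 ± 0.07.

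Of 10 genes of mannose 6-phosphate sorting, IGF2R, the large mannose 6-phosphate receptor, was higher by 0.69 ± 0.09 and the adaptor subunit AP1S1 lower (-0.29 ± 0.10). Among 20 genes of the TFEB family and of nutrient sensing on the lysosome 3 were higher and 2 lower. In this comparison 22.6% of all tested genes were called, 10.3% higher and 12.3% lower. MITF and TFE3, both relatives of TFEB, were lower (-0.78 ± 0.12 and -0.33 ± 0.09), and TSC2, a brake on mTORC1, was higher (0.51 ± 0.09). Of 23 autophagy genes 2 were higher and 1 lower, which is 13%. The autophagy receptor OPTN stood at 0.53 ± 0.12, ATG9A at 0.31 ± 0.10 and the receptor NBR1 at -0.25 ± 0.07. Both analysed cystatins, inhibitors of cysteine cathepsins, were higher, CST3 by 0.37 ± 0.10 and CSTB by 0.43 ± 0.12.

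The summed level of 8 fibroblast and pericyte markers was 2521 to 2783 CPM with 1 µM dexamethasone, against 2515 to 2673 CPM in its vehicle. Of the 8, 4 were higher and 2 lower, where 10.3 and 12.3% of all tested genes were. VIM stood at -0.41 ± 0.05, COL1A2 at -0.62 ± 0.11 and the scarce DCN at 4.15 ± 0.76. With 0.01 µM dexamethasone the same sum was 2481 to 3144 CPM, against 2531 to 2757 CPM in its vehicle, and with 10 µM hydrocortisone it was 2356 to 2664 CPM, against 2651 to 2952 CPM in its vehicle. Hormone and vehicle libraries overlapped in these fibroblast sums in each comparison. Macrophage markers that also stand in a lysosomal list, CD68 and LAPTM5 among them, were left out of the macrophage sum. It therefore covers only a part of the analysed markers. The macrophage markers CSF1R, TREM2 and CD14 together, all near 0, had 1.07 to 1.56 CPM with 1 µM dexamethasone, against 0.326 to 0.569 CPM in its vehicle, without overlap. Their sum was 0 to 0.781 CPM with 0.01 µM dexamethasone, against 0.394 to 0.561 CPM in its vehicle, and 0.964 to 1.59 CPM with 10 µM hydrocortisone, against 0.785 to 1.16 CPM in its vehicle, with overlap in both. The ribosomal share was 23.17 to 76.08% with 1 µM dexamethasone, against 13.91 to 45.65% in its vehicle. It was 10.6 to 94.86% with 0.01 µM dexamethasone, against 17.96 to 82.49% in its vehicle, and 16.63 to 37.31% with 10 µM hydrocortisone, against 28.56 to 91.38% in its vehicle. The part of these differences in the changes of the lysosomal genes was not tested.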

How the data were processed

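Total RNA of HMC3 flasks was made into stranded libraries, per the labels' protocols. The authors deposited whole read counts per Ensembl gene in 1 table, with no normalisation. The submitters' processing notes name FastQC, STAR, Subread, featureCounts and GRCh38, without versions or settings. Libraries were grouped by title. All 43 libraries entered 1 edgeR fit (4.0.16, R 4.3.3) with a coefficient for each of 17 groups (26 residual degrees of freedom), TMM scaling and filterByExpr (minimum count 10, minimum total 15). The quasi-likelihood test was adjusted by the Benjamini-Hochberg method over 16816 genes, with a threshold of 0.05. CPM were computed here from TMM-scaled library sizes. Day 6 hormone groups were compared with the mean of 4 vehicle libraries, single-library groups that borrow their spread from the others. Alternatives included DESeq2 (1.42.0), other vehicle references, RLE factors, no filter and left-out libraries. Named are members past the threshold with any hormone and, per further list, up to 3 genes with the smallest p. Positions are those of GENCODE v29, counted from 1. The members and lists were chosen with earlier results of these data known. The results of 1 gene of the further lists are not reported here.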

Additional observations from a re-analysis of the deposited data

Results flagged for a closer look

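Differences between exposures or days that passed edgeR's test of the difference itself are collected here. Between hydrocortisone at 10 and 0.01 µM, the vehicle-corrected log2 effect differed by -1.09 for CTSC, 0.53 for ASAH1 and 0.84 for SORT1. Between dexamethasone and hydrocortisone at 0.01 µM, it differed by -1.16 for CTSC, 0.53 for CTSZ, 0.51 for ASAH1 and 0.90 for SORT1. Between the hydrocortisone doses ASAH1 was lost without any of 7 single libraries. Between the hormones ASAH1 and CTSZ were each lost without any of 8.

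Between day 6 and day 3 of 1 µM dexamethasone the effect differed by 0.68 for CTSC, -0.40 for GLB1 and -0.65 for SORT1. For 0.01 µM dexamethasone it differed by 1.05 for CTSC, -0.37 for GLB1, -0.53 for ASAH1, -0.33 for SCARB2, 0.37 for ATP6V1B2 and -0.76 for SORT1. For 10 µM hydrocortisone it differed by 1.17 for CTSC, -0.42 for GLB1, -0.48 for ASAH1, -0.42 for SCARB2 and -0.78 for SORT1. The differences of GLB1 after 1 µM dexamethasone were lost without any of 8 single libraries (adjusted p up to 0.234), and after 0.01 µM dexamethasone without any of 4 (up to 0.0817). After 0.01 µM dexamethasone, SCARB2 was lost without any of 3 single libraries and ATP6V1B2 without any of 2. After 10 µM hydrocortisone, ASAH1 was lost without any of 2.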

How the results depend on the processing

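No change of a called gene reversed its direction under any setting run. Over 83 calls of a gene in a comparison, 1121 of 1303 recomputed values kept the call and 182 lost it. On day 3, 12 of 22 calls with 1 µM dexamethasone held under every setting, left-out libraries included. With 0.01 µM dexamethasone 4 of 13 did so, and with 10 µM hydrocortisone 8 of 18. On day 6, 2 of 8 calls after 1 µM dexamethasone held under every setting, and 4 of 8 when left-out libraries were set aside. Without libraries over 75% ribosomal, 7 genes were called with 0.01 µM dexamethasone on day 3 (13 with them) and 1 with 10 µM hydrocortisone on day 6 (0 with them). DESeq2 called 6 and 1 in these comparisons, and 2 for dexamethasone minus hydrocortisone at 0.01 µM (4 in edgeR). The cause was not tested. Under DESeq2, RLE size factors, no filter, other vehicle references and the ribosomal cutoff, no other count of called genes moved by more than 1.5 times.

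Leaving out each library in turn gave 17 to 22 genes called with 1 µM dexamethasone, 6 to 14 with 0.01 µM dexamethasone, 11 to 15 with 10 µM hydrocortisone and 0 to 0 with 0.01 µM hydrocortisone or vehicle on day 3. It gave 5 to 9 for 1 µM dexamethasone and 0 to 1 for 10 µM hydrocortisone on day 6. It gave 0 to 1 for the dexamethasone doses, 2 to 6 for the hydrocortisone doses (6 without vehicle replicate 3 of the high dose), 2 to 4 for dexamethasone minus hydrocortisone and 0 to 1 for vehicle between the days. For the washout changes it gave 2 to 4 (1 µM dexamethasone), 4 to 7 (0.01 µM) and 4 to 6 (10 µM hydrocortisone). Over all tested genes, the ranges of the first 3 comparisons were 2779 to 3390 (3804 with every library), 1643 to 2351 (2353) and 1396 to 2310 (2199). On day 6 they were 1064 to 1725 (1708) and 34 to 174 (150). They were 4 to 18 (8) and 485 to 816 (688) for the doses, 564 to 948 (838) between the hormones and 17 to 114 (85) between the days. For the washout changes they were 159 to 311 (283), 775 to 1207 (1101) and 709 to 1277 (1172).

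With the replicate number as a block, 22, 13 and 18 genes were called on day 3 for 1 µM dexamethasone, 0.01 µM dexamethasone and 10 µM hydrocortisone, 7 on day 6 for 1 µM dexamethasone (8 without the block) and 4 between the hydrocortisone doses (3 without). On day 3, deviations of same-numbered hormone and vehicle libraries correlated between -0.34 and 0.20, so the numbers were not taken to pair these libraries. Whether day 3 and day 6 libraries of the same number are paired was not tested, and the washout changes treat them as independent.

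Depth without ribosomal RNA ran from 1083395 to 17542023 counts. For the 42 genes, the 95% interval of a day 3 log2 change had a median half-width of 0.21, so changes below that size were mostly not detectable. Larger changes could also miss the threshold, since the interval is not adjusted for the number of genes.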
